A study of Mus musculus with 295 samples.

Results

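Fat with high Ucp1 mRNA was compared with fat with low Ucp1 mRNA in mice of an F2 cross whose arrays showed the Y-linked transcript Eif2s3y. Of 295 mice, 153 had a high Eif2s3y ratio and 142 a low one. Of the 153, 47 also had a high ratio of Gpx5, an epididymal glutathione peroxidase, and 1 had no Gpx5 value. The remaining 105 mice were ranked by Ucp1, and both groups were chosen by the measured ratios of Eif2s3y, Gpx5 and Ucp1. The upper quintile (21 mice, called high Ucp1) was compared with the lower quintile (21 mice, called low Ucp1), and the middle quintiles held 63 mice. All mice came from C57BL/6J and C3H/HeJ parents that both lacked ApoE, so every mouse of both groups lacks apolipoprotein E, which clears lipoproteins from blood. Between 8 and 24 weeks of age all were fed Western diet. The labels call the tissue adipose without naming the depot, and they give no sex, genotype or body weight for single mice. High and low Ucp1 are therefore ranks of a measured value and not treatments. Each mouse had 1 array, read as the log ratio of its RNA to a pool of RNA from all mice, so the spread over mice includes technical error.

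Ucp1 encodes uncoupling protein 1, which lets protons back across the inner mitochondrial membrane of brown and beige adipocytes so that fuel oxidation yields heat. Sympathetic nerves drive the programme through beta-adrenergic receptors and cyclic AMP, which act partly through CREB-family factors bound to the sequence called the cyclic AMP response element. Brown adipocytes also express Cidea, a lipid droplet protein, Dio2, which makes active thyroid hormone, and many genes of fatty acid uptake and mitochondrial oxidation. White fat holds few such cells, in numbers that vary between depots and strains. In whole tissue, fewer cells of a type cannot be told apart from less RNA per cell.

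The promoters of Ucp1, which ranked the mice, and of Dio2 and Fabp3, both of which were higher in high-Ucp1 fat, are shown because each holds the core letters of the cyclic AMP response element. They are RefSeq sequences of build GRCm38.p6, the 250 bases before the annotated gene start, written 5′ to 3′ on the gene's strand. Capitals mark TGACG on either strand. The Ucp1 promoter lies at chr8:83290098-83290347 on the + strand, that of Dio2 at chr12:90739039-90739288 on the - strand, and that of Fabp3 at chr4:130308488-130308737 on the + strand.
Ucp1: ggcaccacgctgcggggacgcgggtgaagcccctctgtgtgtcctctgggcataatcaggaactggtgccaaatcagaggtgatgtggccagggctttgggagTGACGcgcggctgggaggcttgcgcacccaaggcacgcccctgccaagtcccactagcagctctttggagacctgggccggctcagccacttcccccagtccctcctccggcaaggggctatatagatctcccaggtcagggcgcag
Dio2: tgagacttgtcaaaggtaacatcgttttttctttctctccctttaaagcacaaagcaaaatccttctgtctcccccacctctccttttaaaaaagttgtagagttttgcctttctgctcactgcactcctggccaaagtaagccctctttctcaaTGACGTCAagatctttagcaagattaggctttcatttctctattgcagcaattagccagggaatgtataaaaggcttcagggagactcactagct
Fabp3: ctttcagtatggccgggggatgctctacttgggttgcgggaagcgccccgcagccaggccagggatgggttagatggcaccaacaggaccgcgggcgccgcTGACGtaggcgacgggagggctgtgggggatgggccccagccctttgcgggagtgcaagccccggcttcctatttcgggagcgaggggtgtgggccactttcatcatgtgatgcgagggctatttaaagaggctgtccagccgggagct

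TGACG stood in 17.8% of 32851 RefSeq promoters of this length. It stood in 8 of 36 promoters of brown fat genes, which belong to 28 genes, Ucp1 included. The full palindrome TGACGTCA, whose overlapping strands give Dio2 matches starting 95 and 92 bases before its gene start, stood in 1.55% of promoters. Among the brown fat genes it was found in Dio2 only. The match in Ucp1 starts 147 and that in Fabp3 149 bases before the gene start. These are matches of letters, and binding was not measured.

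Ucp1 itself chose the groups and was not tested. Its log2 ratio to the pool ran from -1.51 to 2.18 in high-Ucp1 fat, with a median of -0.47. It ran from -5.92 to -4.12 in low-Ucp1 fat, with a median of -4.69. The mice just outside the groups had -1.66 and -4.10. The 105 ranked mice averaged -2.76 ± 1.67 (SD), against 0.20 ± 1.31 in the 142 Eif2s3y-low mice. High Ucp1 here thus means a level near the average of the Eif2s3y-low mice. Eif2s3y did not differ visibly between the groups, 1.03 ± 0.48 in high-Ucp1 and 1.05 ± 0.44 in low-Ucp1 fat (SD, n = 21 each).

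**Figure D1:**
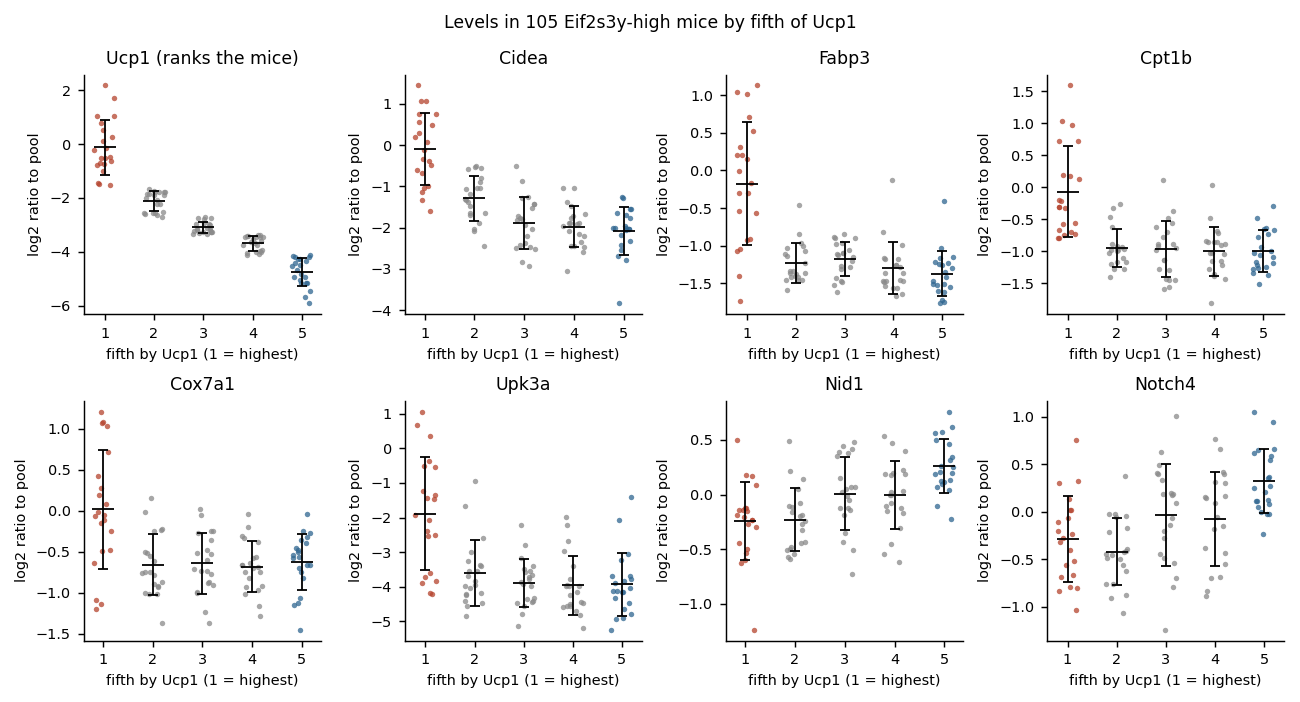
Log2 ratios to the pool (vertical axes) of 8 genes in the 105 ranked Eif2s3y-high mice, in quintiles by Ucp1 (horizontal axes, 21 mice each). Points are mice, bars mean ± SD. Fabp3, Cpt1b, Cox7a1 and Upk3a are raised on average in the quintile of highest Ucp1, while Nid1 and Notch4 have their highest mean where Ucp1 is lowest.

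Across all 22939 probes tested with limma, 362 (1.58%) passed a Benjamini-Hochberg adjusted p under 0.05, of which 59 were higher and 303 lower in high-Ucp1 fat. By direction these are 0.257% and 1.32% of the probes. With the median of each array removed the split was 81 higher (0.353%) and 165 lower (0.719%). With 1 probe a gene, 209 of 11411 genes passed (1.83%), 34 higher (0.298%) and 175 lower (1.53%). The higher genes changed more: Upk3a, Cidea, Serpinb9b, Sprr1a, Pitx1, Fabp3 and a probe annotated SNX17, whose identifier had no mouse RefSeq match, differed by over 1 log2 unit, and no lower gene did. No gene separated the groups without overlap (0 of 11411, or 0.0%).

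Cidea, the lipid droplet protein of brown adipocytes, was the clearest of the higher genes. It ran from -1.60 to 1.45 with a median of -0.11 in high-Ucp1 fat, and from -3.83 to -1.25 with a median of -2.01 in low-Ucp1 fat. Of the 21 high-Ucp1 mice, 19 lay above every low-Ucp1 mouse. The difference was 1.98 ± 0.22 (SE) log2 units, or 3.96-fold (limma, adjusted p = 4.78e-07), and a two-sided permutation test of the means gave p = 1e-05, the smallest that 100000 resamples can give.

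Of the 31 brown fat genes measured besides Ucp1, 7 were higher and 0 lower, against 0.298% and 1.53% of all genes. Their median difference was 0.23, against -0.01 over all genes, and 24 of 31 were positive. Those that passed were Cidea, Fabp3, Cpt1b, Dio2, Pank1, Cox7a1 and Acot11.

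Fabp3, the heart-type fatty acid carrier that brown adipocytes also use, ran from -1.74 to 1.13 (median -0.16) in high-Ucp1 and from -1.77 to -0.41 (median -1.42) in low-Ucp1 fat. The ranges overlapped at the bottom, and 13 of 21 high-Ucp1 mice lay above every low-Ucp1 mouse. The difference was 1.20 ± 0.19 (adjusted p = 6.4e-04), and a second Fabp3 probe gave 1.15.

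Cpt1b, the muscle and brown fat form of the enzyme that admits long-chain fatty acids to mitochondria, ran from -0.80 to 1.59 (median -0.30) against -1.51 to -0.29 (median -1.06). All 21 high-Ucp1 mice lay above the low-Ucp1 median. Its difference was 0.93 ± 0.16 (adjusted p = 0.0045).

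Dio2, the deiodinase that activates thyroid hormone inside the cell, ran from -1.85 to 0.76 (median -0.15) against -2.46 to -0.03 (median -1.10). The ranges overlapped widely, with 7 of 21 high-Ucp1 mice above all low-Ucp1 mice. The difference was 0.90 ± 0.19 (adjusted p = 0.015). Pank1, a pantothenate kinase of coenzyme A synthesis, was higher by 0.76 ± 0.18 (adjusted p = 0.023). Cox7a1, the heart and brown fat form of a cytochrome oxidase subunit, was higher by 0.64 ± 0.17 (adjusted p = 0.041). Acot11, an acyl-CoA thioesterase of brown fat, was higher by 0.52 ± 0.13 (adjusted p = 0.027).

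Other well-known brown fat genes did not pass. Ppargc1a, the coactivator of mitochondrial biogenesis, differed by 0.50 (adjusted p = 0.069), Gpd2, the mitochondrial glycerol phosphate dehydrogenase, by 0.33 (adjusted p = 0.070), and Cox8b, another oxidase subunit, by 0.62 (adjusted p = 0.083). Otop1 gave 0.73 from one probe and -0.05 from another, neither past the threshold. Elovl3, a fatty acid elongase of stimulated brown fat, differed by 0.14 (adjusted p = 0.48). Of the transcription factors, Prdm16 differed by 0.23, Zic1 by 0.10 and Lhx8 by -0.21, with adjusted p-values of 0.81, 0.82 and 0.68. Their spread was wide: Prdm16 had an SD of 1.42 in high-Ucp1 fat.

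**Figure D2:**
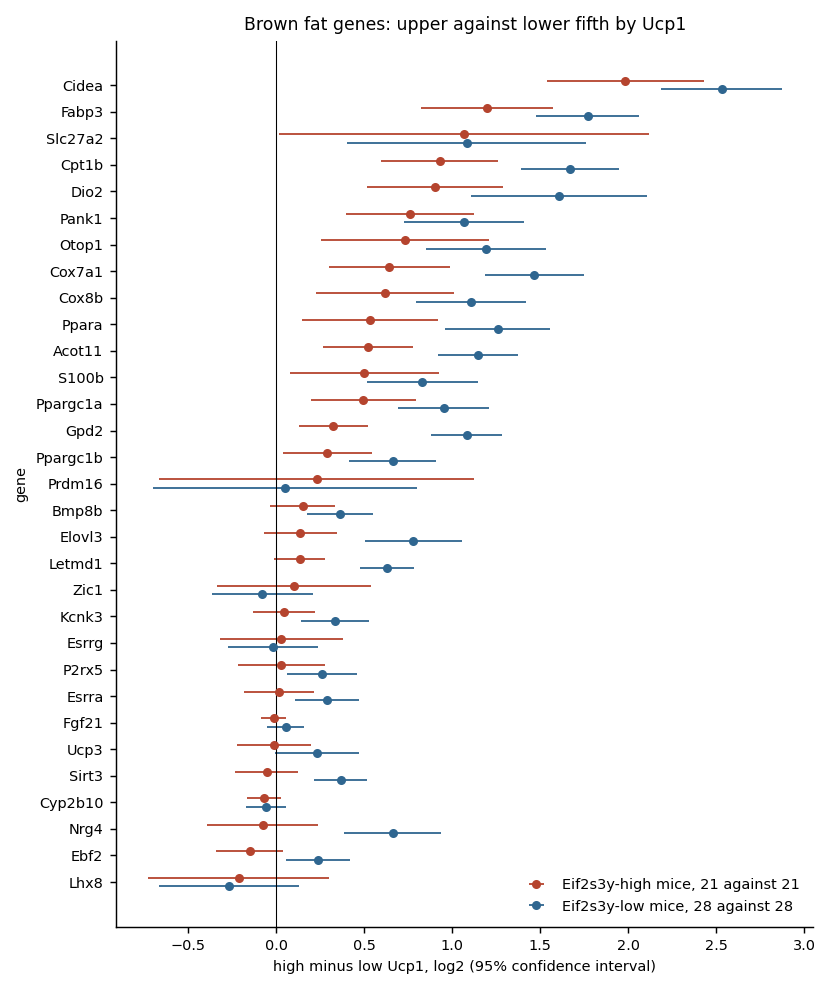
Difference between the upper and lower quintile by Ucp1 (horizontal axis, log2 units, with 95% confidence intervals) for the 31 measured brown fat genes in Eif2s3y-high mice (red, 21 against 21) and Eif2s3y-low mice (blue, 28 against 28). Cidea leads in both, with 1.98 and 2.53.

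Over the ranked mice the called brown fat genes followed Ucp1 in more than 1 shape. From the highest to the lowest quintile by Ucp1, Fabp3 averaged -0.17, -1.23, -1.18, -1.30 and -1.37. Cpt1b averaged -0.07 in the highest and between -1.0 and -0.95 in the others, and Cox7a1 0.021, -0.66, -0.64, -0.68 and -0.62. For these genes nearly all of the difference lay between the highest and the next quintile. Cidea fell further, from -0.09 through -1.29, -1.88 and -1.97 to -2.08. Dio2 averaged -0.20, -0.38, -0.61, -0.57 and -1.10, and Acot11 0.15, -0.14, -0.29, -0.22 and -0.38, spread over the quintiles. Fabp3 exceeded the highest low-Ucp1 mouse in 13 of 21 high-Ucp1 and in 1 of 63 middle mice. Cidea did so in 19 of 21 and in 14 of 63. Cidea, Fabp3 and Cpt1b together did so in 10 of 21 high-Ucp1 mice and in 0 of 63 middle mice.

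Some brown fat genes also varied together among the high-Ucp1 mice. Within these 21 mice, 11 of 30 brown fat genes correlated with Cidea past an adjusted p of 0.05 (two-sided permutation tests on Pearson's r, Benjamini-Hochberg over 30 genes), and 13 of 30 did so by Spearman's rho. The weakest r of the 11 was 0.54, a size that 2.38% of all 11410 genes reached in these mice, in either sign. The strongest was Fabp3, with r = 0.95 and rho = 0.97 (each permutation p = 1e-05, adjusted p = 6e-05 for r), and r = 0.94 when the 2 mice with the most extreme Cidea were left out. Cpt1b had r = 0.88 and rho = 0.88, Gpd2 r = 0.88 and rho = 0.88, and Ppara, the nuclear receptor of fatty acid oxidation, r = 0.85 and rho = 0.87. Without the 2 farthest mice these r were 0.87, 0.85 and 0.82. Cox7a1, Cox8b and Ppargc1a had r between 0.81 and 0.84. Of these, Gpd2, Ppara, Cox8b and Ppargc1a had missed the test between groups.

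Dio2 did not pass. Its r with Cidea was -0.02 (rho 0.064, permutation p = 0.93, adjusted p = 0.93), although it was higher in the group as a whole. Within low-Ucp1 fat 3 of 30 genes correlated with Cidea, and in the 63 middle mice 4 of 30. By rho these counts were 1 and 9. The weakest r that passed was 0.62 in low-Ucp1 fat and 0.45 in the middle mice. In the same mice 0.762% and 0.324% of all 11410 genes reached those sizes, in either sign. Fabp3, which had r = 0.95 in the high-Ucp1 mice, had r = -0.03 in the middle mice (permutation p = 0.84). The difference between these correlations was not tested.

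**Figure D3:**
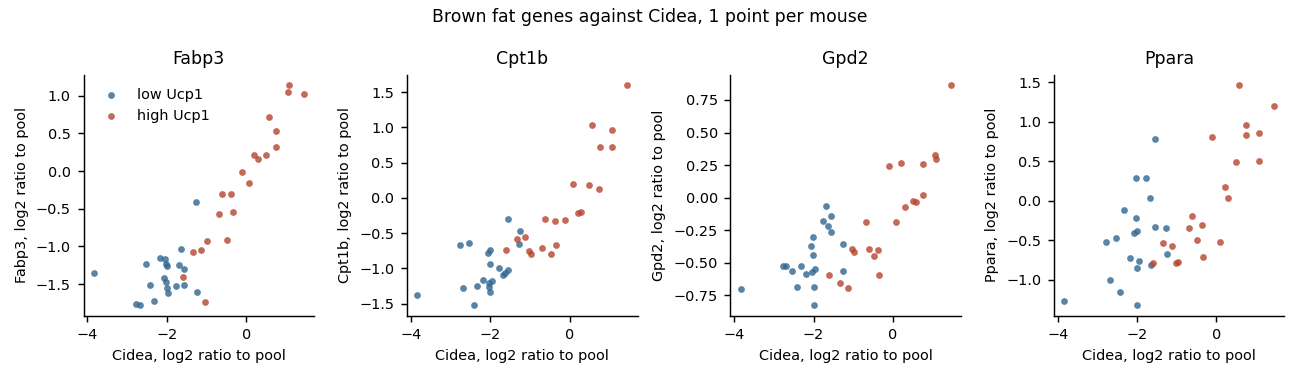
Fabp3, Cpt1b, Gpd2 and Ppara (vertical axes) against Cidea (horizontal axes), both as log2 ratio to the pool, with 1 point per mouse of the high-Ucp1 (red) and low-Ucp1 (blue) groups. In the high-Ucp1 mice the genes climb with Cidea, with r from 0.85 to 0.95.

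The counts for mitochondrial genes stand against the 1.83% of all genes that passed. Of 22 measured respiratory chain genes 0 passed in either direction, with a median difference of 0.03, and of 13 citric acid cycle genes 0 passed, with a median of 0.01. Of 17 fatty acid oxidation genes 1 was higher, Acadvl, the very long-chain acyl-CoA dehydrogenase, by 0.28 (adjusted p = 0.032). Another, Acaa1b, a peroxisomal thiolase, was lower by 0.66 on the log2 scale (difference -0.66, adjusted p = 0.030). Of 22 mitochondrial biogenesis genes, Vdac2, an outer membrane channel, was higher by 0.29 (adjusted p = 0.031). Of 10 beige fat genes 0 passed, with a median of -0.04, and of 13 adrenergic and cyclic AMP genes 1 was lower, Adcy6, an adenylate cyclase, with a difference of -0.39 (adjusted p = 0.028).

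Skeletal muscle shares Cpt1b, Fabp3 and Cox7a1 with brown fat. Of its 17 measured genes 0 passed. Their mean level ran from -1.01 to 1.14 in high-Ucp1 and from -0.98 to 1.38 in low-Ucp1 fat, with medians of -0.72 and -0.68. With the mean z-score of these genes as a covariate 7 brown fat genes passed, against 4 with Lep as a covariate and 1 without arrays that carried transcripts of other tissues.

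Genes not tied to brown fat also stood among the higher ones. Upk3a, a uroplakin known from urothelium, ran from -4.22 to 1.06 (median -1.93) in high-Ucp1 and from -5.24 to -1.41 (median -4.11) in low-Ucp1 fat. The difference was 2.04 ± 0.40 (adjusted p = 0.013), with 8 of 21 high-Ucp1 mice above all low-Ucp1 mice and 1 of 63 middle mice. Sprr1a, a small proline-rich protein of the cornified envelope, was higher by 1.23 ± 0.25 (adjusted p = 0.015), and Pitx1, a homeobox factor known from hindlimb development, by 1.22 ± 0.26 (adjusted p = 0.015). Within the high-Ucp1 mice, r with Cidea was 0.13 for Upk3a and 0.097 for Sprr1a, rho 0.14 and 0.12, with permutation p = 0.56 and 0.67 for r. Pitx1 had r = 0.39 and rho = 0.33 (permutation p = 0.077 and 0.15). Adjusted over the 6 genes tried there, chosen after their values were seen, these p-values for r were 0.81, 0.81 and 0.23. Tyrobp, a macrophage gene also tried, had r = -0.42 (permutation p = 0.055, adjusted p = 0.23). Its rho with Cidea was -0.58 (permutation p = 0.0069, adjusted p = 0.041). Upk2 and Lep, the remaining genes tried, had r = 0.016 and 0.32 (permutation tests, adjusted p = 0.94 and 0.32).

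Among the other genes with the most positive differences, Tfec, a transcription factor of the macrophage lineage, was higher by 0.86 ± 0.21 (adjusted p = 0.029), Cd5l, a protein secreted by macrophages, by 0.79 ± 0.21 (adjusted p = 0.046), and Creg1, a lysosomal glycoprotein, by 0.70 ± 0.18 (adjusted p = 0.039). Rragd, a GTPase of lysosomal nutrient sensing, was higher by 0.81 ± 0.20 (adjusted p = 0.027), and Serpinb9b, a serpin, by 1.56 ± 0.40 (adjusted p = 0.032). Of the 14 macrophage genes on the list tested, 0 passed, and all 14 were positive, with a median of 0.46. Msr1, the scavenger receptor, had the largest difference of those named, 0.63 (adjusted p = 0.16), followed by Tyrobp with 0.57 (adjusted p = 0.12) and Adgre1 with 0.52 (adjusted p = 0.20). Adgre1 was picked after its values were seen. The mean of the macrophage list ran from -1.59 to 1.06 (median 0.44) in high-Ucp1 and from -1.49 to 0.69 (median 0.05) in low-Ucp1 fat. Of 12 T cell and 9 B cell genes 0 passed and all were positive, with medians of 0.17 and 0.36. With the mean z-score of the macrophage genes as a covariate 12 probes were higher (0.0523%) and 3 lower (0.0131%). Cidea then differed by 2.21, Fabp3 by 1.34 and Tfec by 0.57.

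The genes lower in high-Ucp1 fat were more numerous and shifted less. The most negative differences by gene were those of Apcdd1, a Wnt inhibitor (-0.88 ± 0.22, adjusted p = 0.029), Chst1, a sulfotransferase of keratan sulfate (-0.81 ± 0.20, adjusted p = 0.032), Fgfrl1, an FGF receptor without a kinase domain (-0.74 ± 0.17, adjusted p = 0.020) and Opn3, an opsin (-0.70 ± 0.19, adjusted p = 0.048). Nkd1, a further Wnt inhibitor, Mst1r, a receptor tyrosine kinase, Fads3, of the fatty acid desaturase family, Smoc1, a matrix protein, Mpp4 and Vstm2b followed with differences from -0.68 to -0.60. Arhgap20, a GTPase-activating protein, ran from -0.76 to 0.74 (median 0.053) in high-Ucp1 and from -0.31 to 1.71 (median 0.67) in low-Ucp1 fat. The ranges overlapped over most of their length, and 19 of 21 high-Ucp1 mice lay below the low-Ucp1 median. Its difference was -0.68 ± 0.13 (adjusted p = 0.0086).

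Of 12 measured endothelial genes 1 was lower, against 1.53% of all genes, and 10 were negative, with a median of -0.20. The 1 was Esam, an endothelial adhesion molecule (-0.36 ± 0.08, adjusted p = 0.020). Some single genes outside that list, known from vessels or basement membrane, were also lower. Notch4, a Notch receptor of endothelium, ran from -1.03 to 0.76 (median -0.28) in high-Ucp1 and from -0.23 to 1.05 (median 0.25) in low-Ucp1 fat. Of the 21 high-Ucp1 mice 18 lay below the low-Ucp1 median, and the difference was -0.60 ± 0.12 (adjusted p = 0.015). Its ligand Dll4 differed by -0.56 ± 0.12 (adjusted p = 0.015). Nid1, the basement membrane protein nidogen, differed by -0.50 ± 0.09 (adjusted p = 0.0082), and Col4a1, a collagen of the same membrane, by -0.38 ± 0.10 (adjusted p = 0.045). Thbd, thrombomodulin, Mcam, an endothelial and pericyte adhesion molecule, and Vegfb, a vascular growth factor, differed by -0.59, -0.52 and -0.43, with adjusted p-values of 0.032, 0.023 and 0.046. Of these, Notch4 and Col4a1 were named by rules that select on this same difference, and the others were picked after their values were seen. None of them therefore says anything of vessel genes as a group.

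Of 15 measured white adipocyte genes, 2 were lower, against 1.53% of all genes, and all 15 were negative, with a median of -0.36. The 2 were Npr3, the natriuretic peptide clearance receptor (-0.46 ± 0.11, adjusted p = 0.028), and Sfrp5, a secreted Wnt antagonist (-0.29 ± 0.07, adjusted p = 0.028). Lep, leptin, ran from -0.92 to 0.66 (median -0.04) in high-Ucp1 and from -0.54 to 1.27 (median 0.34) in low-Ucp1 fat. Its difference of -0.47 ± 0.13 had an adjusted p of 0.054 over all probes. Mest, a marker of adipose expansion, differed by -0.60 (adjusted p = 0.068).

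Of 17 fatty acid synthesis genes 1 was lower, Fasn, fatty acid synthase, against 1.53% of all genes, and 16 were negative, with a median of -0.28. Fasn ran from -1.75 to 0.29 (median -0.56) in high-Ucp1 and from -1.77 to 0.90 (median 0.18) in low-Ucp1 fat. Both groups reached equally low values, yet 20 of 21 high-Ucp1 mice lay below the low-Ucp1 median (difference -0.62 ± 0.17, adjusted p = 0.048). Fasn passed in only 7 of 16 alternative settings, and not with array medians removed or the muscle z-score as a covariate. Of 12 lipid droplet and lipolysis genes 0 passed and 11 were negative, with a median of -0.34. Plin1, the main droplet coat protein of adipocytes, differed by -0.37 (adjusted p = 0.061), and Dgat2, which makes triglyceride, by -0.36 (adjusted p = 0.068). Irs2, an insulin receptor substrate, Scarb1, the HDL receptor, and Hoxb5, a homeobox gene (Irs2 and Hoxb5 picked after their values were seen), differed by -0.58, -0.30 and -0.46, with adjusted p-values of 0.038, 0.023 and 0.015. A second Irs2 probe gave -0.15 (adjusted p = 0.35). Apoe, which all these mice lack as protein, differed by -0.08 (adjusted p = 0.75).

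**Figure D4:**
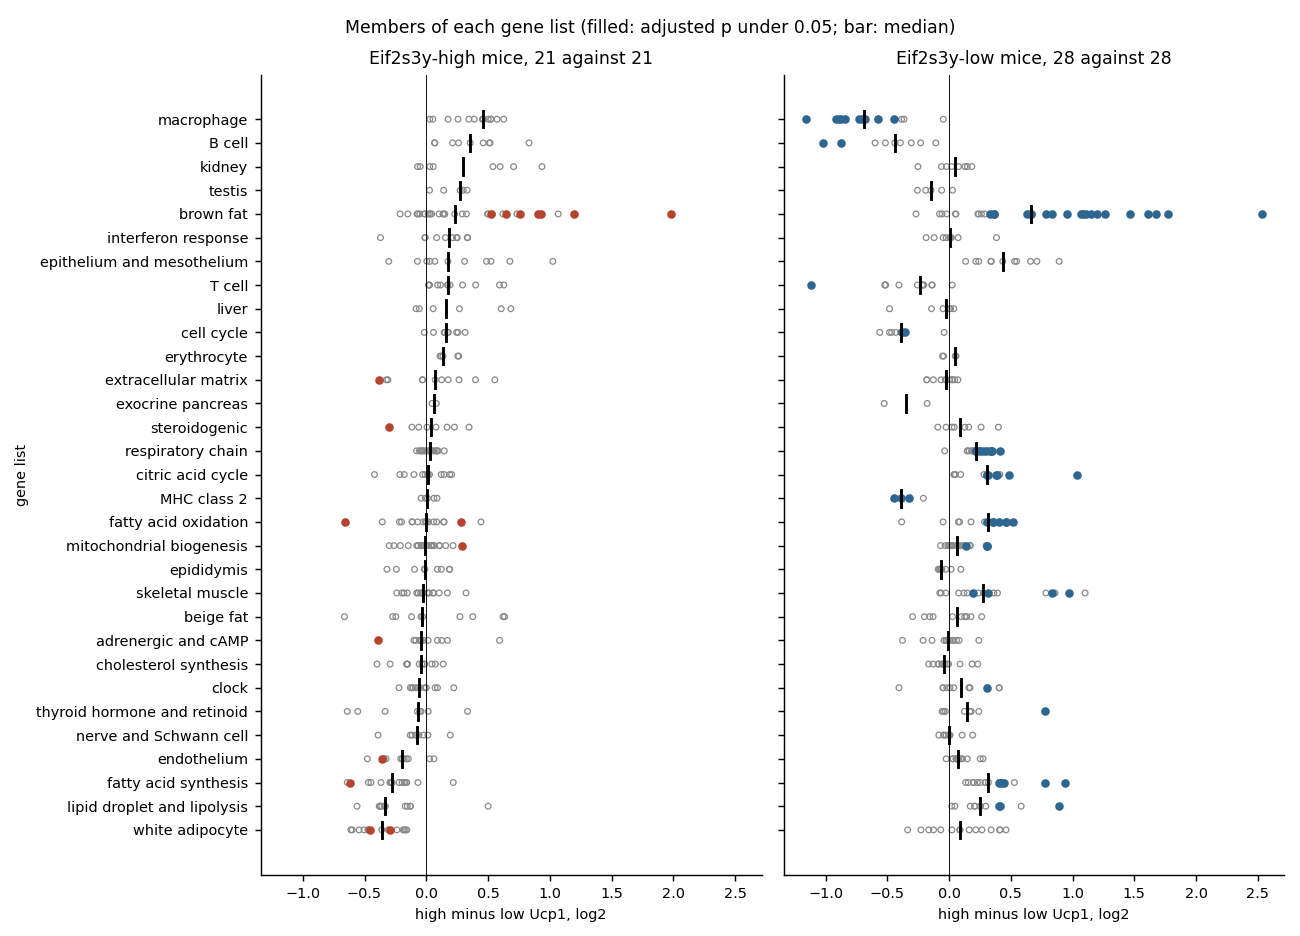
Difference between high and low Ucp1 (horizontal axes, log2 units) for each measured member of 31 gene lists, in Eif2s3y-high mice (left) and Eif2s3y-low mice (right). Filled points passed an adjusted p of 0.05, open points did not, and bars are medians. On the left the macrophage median is 0.46 and the white adipocyte median -0.36; on the right the macrophage median is -0.69.

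From the highest to the lowest quintile by Ucp1, the lower gene Arhgap20 averaged 0.021, 0.038, 0.32, 0.27 and 0.70, and the lower gene Notch4 -0.28, -0.42, -0.04, -0.07 and 0.32. Lep, which did not pass, averaged -0.10, -0.02, 0.29, 0.24 and 0.37. For each of them the mean was highest where Ucp1 was lowest. With Lep as a covariate 6 probes were higher (0.0262%) and 1 lower (0.00436%). Cidea, Fabp3 and Cpt1b then differed by 2.12, 1.36 and 1.05, and Arhgap20 and Notch4 by -0.46 and -0.55.

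The same relation was fitted in other Eif2s3y-high mice. In the 63 middle mice no probe passed for its slope on Ucp1 (0.0% of 23008, with 1454 at an unadjusted p under 0.05; limma). The slope had the sign of the group difference in 32 of the 34 higher genes and in 172 of the 175 lower genes. Over all genes 51.0% of slopes were positive and 49.0% negative. Genes that vary together do not count as separate checks. Cidea had a slope of 0.43 per log2 unit of Ucp1 (adjusted p = 0.37), and Fabp3 of 0.02 (adjusted p = 0.97). In the 47 mice with epididymis transcripts, the upper and lower quintiles by Ucp1 held 9 mice each, and again no probe passed (0.0% of 22758, with 1762 at an unadjusted p under 0.05; limma). There 32 of 33 higher and 175 of 175 lower genes had the same sign, and a slope over all 47 mice called 3 probes. Between these quintiles 48.3% of all genes were positive and 51.7% negative. Cidea ran from -2.05 to 0.31 (median -1.04) in those with high and from -3.58 to -1.77 (median -3.29) in those with low Ucp1, a difference of 2.01 (limma, adjusted p = 0.051).

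Eif2s3y-low mice shared several brown fat genes and few others. Between their upper and lower quintiles by Ucp1, 28 mice each, 219 genes were higher (1.92%) and 202 lower (1.77%). Of the 34 genes higher in Eif2s3y-high mice, 12 were also higher there, 35.3% of the 34 and 5.48% of the 219: Cidea, Fabp3, Cpt1b, Dio2, Cox7a1, Acot11, Pank1, Acadvl, Upk3a, Sprr1a, Tuba8 and the probe annotated SNX17. Another 2 were lower there. Of the 175 lower genes, 0 were lower there, 3 were higher, and 12 had the same sign, while 51.4% of all genes were negative there. Of the 31 brown fat genes 20 were higher in Eif2s3y-low mice, with a median of 0.66.

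The difference between the 2 sets of mice was itself tested. It passed for 1091 of 11401 genes (9.57%; limma interaction contrast, Benjamini-Hochberg), of which 485 (4.25%) were positive and 606 (5.32%) negative in Eif2s3y-high minus Eif2s3y-low mice. By probe it passed for 789 positive (3.45%) and 1003 negative (4.38%), and with array medians removed for 1042 and 780. The quintiles of the 2 sets stand at different Ucp1 levels. Ucp1 averaged -0.12 and -4.76 in the high and low groups of Eif2s3y-high mice, and 1.94 and -1.74 in those of Eif2s3y-low mice. Effects are thus compared between ranks, not between equal steps of Ucp1. With slopes on Ucp1 over all arrays of both sets compared instead, 869 probes were positive and 987 negative. Of the 1091, 483 had a positive estimate in Eif2s3y-high and a negative one in Eif2s3y-low mice, and 592 the other way round. These are signs of the estimates, whether or not the gene passed within either set. Cidea's effect, 1.98 against 2.53, did not pass (difference -0.55, 95% confidence interval -1.07 to -0.03, adjusted p = 0.21). Of the 31 brown fat genes 9 had a smaller effect in Eif2s3y-high mice, among them Cox7a1 (0.64 against 1.47, adjusted p = 0.0099), Cpt1b (0.93 against 1.67, adjusted p = 0.019) and Gpd2 (0.33 against 1.08, adjusted p = 0.0023). Pdk4, the pyruvate dehydrogenase kinase, named after its values were seen, differed by 0.01 against 1.04 (adjusted p = 0.0023).

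Lipid and macrophage genes differed between the 2 sets in opposite directions. Fasn differed by -0.62 in Eif2s3y-high and by 0.53 in Eif2s3y-low mice (adjusted p of the difference 0.0064), and Plin1 by -0.37 and 0.41 (0.0018). Of 12 lipid droplet genes 8 differed between the sets, and of 17 fatty acid synthesis genes 7, all with the more negative effect in Eif2s3y-high mice. Of all genes 5.32% did so. Of 14 macrophage genes 12 differed, all with the more positive effect there, against 4.25% of all genes. Members of a list that vary together do not count as separate checks. Msr1 differed by 0.63 and -0.87 (adjusted p of the difference 0.0023), Tyrobp by 0.57 and -0.73 (0.0036).

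**Figure D5:**
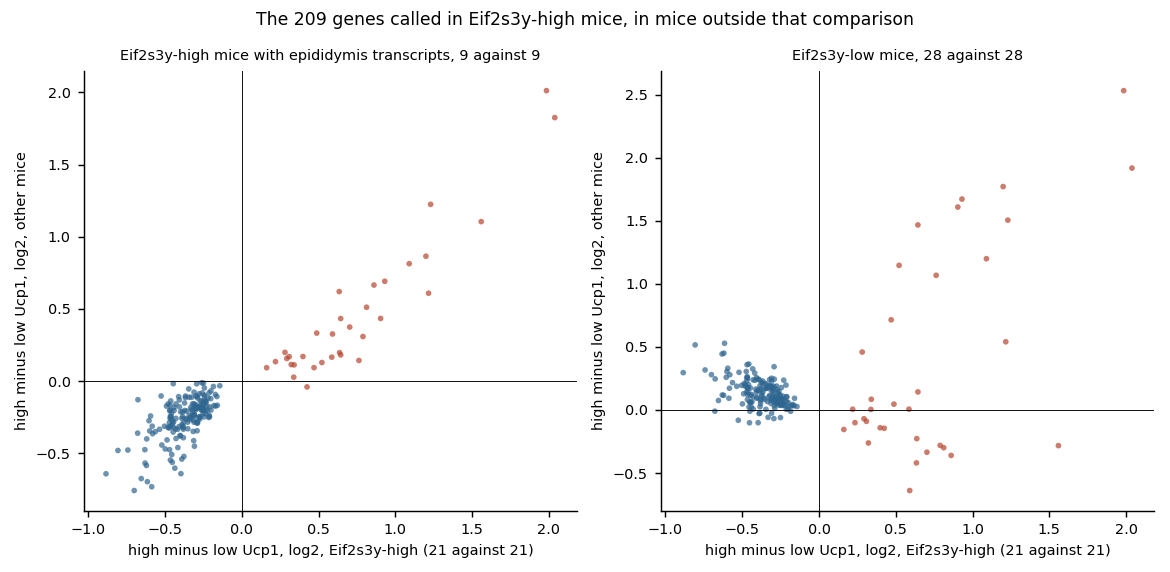
The 209 genes that passed in Eif2s3y-high mice (horizontal axes, log2 difference, 21 against 21; red higher, blue lower), against the same difference in mice outside that comparison (vertical axes): Eif2s3y-high mice with epididymis transcripts (left, 9 against 9) and Eif2s3y-low mice (right, 28 against 28). On the left 32 of 33 higher and 175 of 175 lower genes keep their sign, and on the right 19 of 34 and 12 of 175. Over all genes 48.3% are positive in the mice of the left panel and 48.6% in those of the right.

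Some arrays carried transcripts of other tissues. The mean of a kidney, testis, epithelial or other list stood over 1 log2 unit above the median of both groups in 11 high-Ucp1 and 7 low-Ucp1 mice, most often that of kidney (6 and 4). Without them, a setting chosen after seeing the data, 10 against 14 mice remained and 1 probe passed (0.00436%), that of Cidea (1.56, limma adjusted p = 0.023). Fabp3 then differed by 0.73 (adjusted p = 0.13), Cpt1b by 0.52 (adjusted p = 0.15), Cox7a1 by 0.14 (adjusted p = 0.76) and Notch4 by -0.50 (adjusted p = 0.17). Array medians were 0.06 ± 0.03 in high-Ucp1 and 0.09 ± 0.03 in low-Ucp1 fat (SD, n = 21 each; two-sided permutation p = 0.0053). Missing values were 0.93% and 0.87%. In 3 ranges of the mouse numbers (2 to 117, 118 to 246 and 247 to 399), whose relation to processing is not known, Cidea differed by 1.56, 2.03 and 2.23 and Notch4 by -0.89, -0.69 and -0.42, from 4 against 3, 9 against 7 and 8 against 11 mice.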

How the data were processed

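For 23387 probes the authors deposited ratios, read here as log10, from 1 array a mouse, with mouse RNA in Cy3 and the pool in Cy5 per the labels. Background correction and normalization are not given in the sources used here. Neither are scale and direction. High Eif2s3y mice begin at -0.10 and the others end at -4.16 on the log2 scale, which fits mouse over pool. Base 10 was chosen but is uncertain. Gpx5, high in 47 of 295 mice, should there be about 6.28-fold the pool. It was 2.55-fold read as log10, 1.33-fold as log2 and 1.50-fold as natural log. Eif2s3y, high in 153 mice, should there be about 1.93-fold. It was 2.40-fold read as log10, above that ratio, and 1.30-fold as log2 and 1.46-fold as natural log, both below it. Fold sizes rest on that reading.

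Deposited values were multiplied by 3.32 to log2. The limits were Eif2s3y above -0.6 and Gpx5 at or below -0.5 on the deposited scale. The probes of Ucp1, Eif2s3y and Gpx5 were not tested. Probes measured in at least 90% of the arrays of each group were fitted with limma 3.58.1 (R 4.3.3), gaps left missing, with Benjamini-Hochberg adjustment over probes and a threshold of 0.05. Of several probes of a gene the most variable stood for it, among those with a single symbol (13644 probes had 1, 48 several, 9695 none; 12652 matched RefSeq by Entrez identifier). Other steps used Python 3.11.15 with SciPy 1.17.1, pandas 2.3.3, NumPy 2.4.6 and matplotlib 3.10.9. On simulated data with 200 changed probes among 22942, 83% of changes of 0.5 and 98% of 1.0 log2 unit were recovered in 21 against 21 arrays, with 9 false calls. The simulated noise was independent between probes, with the same SD in both groups. Recovery in the real arrays can therefore differ. Arrays give no read depth, and their number limits the precision.

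Named genes were the 14 most positive and 14 most negative that passed, the 4 members of each list with the smallest p, all brown fat genes, Cidea, Lep and Apoe, the 6 genes with the smallest p between Eif2s3y sets, and the 6 most and least correlated with Ucp1 in the middle mice. Others are said to have been picked after their values were seen. The members, lists and this rule were chosen with earlier results of these data known. Alternatives changed the quintiles, centring, covariates, block, test and probe filters.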

Additional observations from a re-analysis of the deposited data

Results flagged for a closer look

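The effect of Ucp1 rank differed between Eif2s3y-high and Eif2s3y-low mice (limma interaction contrast, adjusted p under 0.05) for many named genes. Each value is the log2 difference in Eif2s3y-high minus that in Eif2s3y-low mice. Many of these genes were named for their difference in Eif2s3y-high mice, which is itself part of the value. For those genes the choice partly set the sign and size of the value. The 6 genes with the smallest p were Hspb1, a small heat shock protein (-0.83), Otulin, a deubiquitinase (0.58), Lmtk2, a kinase (-0.66), Gcnt1, a glycosyltransferase (1.23), a probe annotated PNLDC1 without a mouse RefSeq match (-1.08), and Esyt1, a membrane tether (-0.51). Hspb1 differed by -0.47 in Eif2s3y-high and 0.36 in Eif2s3y-low mice, and Gcnt1 by 0.59 and -0.64, past the threshold in each set.

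Among brown fat and mitochondrial genes the values were -0.74 for Cpt1b, -0.82 for Cox7a1, -0.62 for Acot11, -0.72 for Ppara, -0.74 for Nrg4, -0.42 for Sirt3, -0.76 for Gpd2, -0.49 for Letmd1, -0.64 for Elovl3, -1.02 for Pdk4 and 0.36 for Vdac2. For lipid genes they were -1.14 for Fasn, -0.78 for Plin1, -0.62 for Dgat2, -0.73 for Acaa1b, -0.74 for Fads3, -0.46 for Scarb1 and -0.76 for Irs2. Macrophage and lysosome genes went the other way, with 1.30 for Tyrobp, 1.5 for Msr1, 1.42 for Adgre1, 1.20 for Cd68, 1.22 for Tfec, 1.07 for Cd5l, 1.04 for Creg1 and 1.11 for Rragd. Of these, Adgre1 and Cd68 were picked after their values were seen. Serpinb9b had 1.84. The macrophage list mean was 0.32 in high-Ucp1 and -0.08 in low-Ucp1 Eif2s3y-high mice, and -1.21 and -0.52 in Eif2s3y-low mice. Its part in these differences was not tested.

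Single genes known from vessels or basement membrane gave -0.86 for Notch4, -0.78 for Dll4, -0.93 for Thbd, -0.82 for Mcam, -0.70 for Nid1, -0.46 for Esam and -0.76 for Vegfb. Notch4 and Esam were named by rules that select on the difference in Eif2s3y-high mice, and the others were picked after their values were seen. None of them therefore says anything of vessel genes as a group. Of the 12 measured endothelial genes on the list 3 passed, all negative, against 5.32% of all genes. The other lower genes gave -1.18 for Apcdd1, -1.32 for Chst1, -1.06 for Fgfrl1, -0.98 for Opn3, -0.67 for Arhgap20, -0.92 for Mpp4, -1.08 for Mst1r, -0.75 for Nkd1, -1.07 for Smoc1, -0.91 for Vstm2b, -0.63 for Adcy6 and -0.64 for Hoxb5.

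In the mice with epididymis transcripts and low Ucp1, 1 mouse had an Upk3a ratio of -3.92, the lowest and apart from the other 8. Chance alone sets about 1 in 20 such groups apart in this way.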

How the results depend on the processing

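No paired analysis was possible because all samples form 1 labelled group and share no replicate numbers. Against 59 probes higher and 303 lower, the count was 10 and 3 for deciles, 294 and 735 for quartiles, 115 and 397 for a slope over all 105 mice, 81 and 165 with array medians removed, and 108 and 575 without mice of Eif2s3y at most 0.45. It was 12 and 3 with the macrophage z-score, 6 and 1 with Lep, 9 and 8 by Wilcoxon test, and 1 and 0 without arrays with transcripts of other tissues. The last setting was chosen after seeing the data. The cause was not tested, though deciles and that setting also leave fewer mice. Brown fat genes higher fell from 7 to 4 with Lep and to 1 without those arrays. The 2 white adipocyte genes and the 1 endothelial gene that were lower became 0 with Lep, with the macrophage z-score and without those arrays. A slope over the 47 mice with epididymis transcripts gave 3 probes higher. In the middle quintiles 4 genes, not 11, followed Cidea by Pearson's r, and 9, not 13, by rho. Of probes that passed, 9 were at least 2-fold different on the log10 reading and 0 on the log2 or natural log readings. Of the 16 alternatives run on single genes, Cidea passed in all 16 (differences or slopes from 0.47 to 2.84), Fabp3 and Cpt1b in 15, and Cox7a1 in 10. Fasn, Col4a1, Vegfb and Mst1r passed in only 7. None of the 53 named genes that passed changed sign. That was partly fixed in advance, because the Wilcoxon setting keeps the limma difference and several other settings reuse the same arrays. Of the 53, 48 did not pass with Lep, 48 with the macrophage z-score, 49 for deciles and 45 by Wilcoxon test. Without arrays with transcripts of other tissues 52 did not pass.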
